A study of Mus musculus with 9 samples.

Results

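A set of 10 genes of the smooth muscle contractile program, which marks differentiated airway and vascular smooth muscle cells, was followed across lung grafts with and without obliterative bronchiolitis (OB) and sham-operated lungs. Its members were the genes of smooth muscle actin (*Acta2*), smooth muscle myosin heavy chain (*Myh11*), transgelin (*Tagln*), calponin (*Cnn1*), desmin (*Des*), gamma smooth muscle actin (*Actg2*), leiomodin (*Lmod1*), smoothelin (*Smtn*), synaptopodin 2 (*Synpo2*) and the transcriptional coactivator myocardin (*Myocd*). Every non-control probe whose accession belonged to one of them was taken, which gave 17 of the 56601 probes tested, and the 10 genes were among 22909 genes that could be named. The rule itself used no measured value, but the members were chosen with earlier results of these data known.

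The arrays held RNA from left lungs of male inbred mice taken on day 21 after surgery, 3 lungs in each of 3 groups. In both graft groups a lung of a C57BL/10 donor had been placed orthotopically into a C57BL/6 recipient, a pair that shares its major histocompatibility type and differs in minor antigens. Histology separated grafts with fibrous airway lesions (OB) from those without (non-OB). The sham mice had a thoracotomy only, and their lungs were not transplanted. No gene was altered and no drug was part of the comparison. The labels give donor C57BL/10 and recipient C57BL/6 for all 9 lungs, whereas the study names sham 1 as C57BL/10 and sham 2 and sham 3 as C57BL/6. A graft also holds cells of the recipient strain that entered it, and whole tissue was homogenized. All 10 lung epithelial marker genes examined were well above background on all 9 arrays, the surfactant gene *Sftpc* and the alveolar gene *Ager* among them.

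Smooth muscle cells shorten when myosin, switched on by phosphorylation of its light chain, pulls on actin filaments that are anchored to dense bodies and to the cell membrane. In the lung such cells ring the conducting airways and the arteries. Many of their contractile genes are driven by serum response factor (SRF), which binds a short element called the CArG box, together with its coactivator myocardin.

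Of the 10 genes, 6 had an entry in the set of RefSeq promoters used (GRCm38.p6), namely *Acta2*, *Cnn1*, *Des*, *Lmod1*, *Smtn* and *Synpo2*. *Myh11*, *Tagln*, *Actg2* and *Myocd* had none in that set, so their promoters were not searched. The 250 bases before each annotated start were searched on both strands, which are read at once because the element is its own reverse complement. None of the 6 windows held a full CArG box, and 1.47% of all 32851 windows did. With 1 of the inner A/T bases allowed to be another letter, 1 of the 6 windows matched, that of *Acta2*, and 8.59% of all windows did. The *Acta2* stretch, on the minus strand at chr19:34255374-34255482, runs from base -109 to base -1 and has the matches in capitals at -84 and -34. It is shown as the one match among the 6 genes searched.
Acta2: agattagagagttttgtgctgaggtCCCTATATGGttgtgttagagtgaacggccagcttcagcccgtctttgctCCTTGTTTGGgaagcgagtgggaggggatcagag
Among 24 other genes of the contractile apparatus, 22 had an entry and 5 held a full box, and among 13 transcription factors of smooth muscle, 8 had an entry and 1 held one, *Srf* itself. *Vcl* (vinculin) and *Myl9* (regulatory light chain of smooth muscle myosin) are shown because both fell in OB, and *Myl6* (essential light chain) because it carries the same element and was not called. The *Vcl* stretch lies on the plus strand at chr14:20929148-20929205, that of *Myl9* on the plus strand at chr2:156775278-156775399, and that of *Myl6* on the minus strand at chr10:128493025-128493084. Capitals mark the boxes, of which the one of *Myl9* nearer its start has 1 mismatch.
Vcl: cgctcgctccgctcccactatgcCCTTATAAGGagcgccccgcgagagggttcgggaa
Myl9: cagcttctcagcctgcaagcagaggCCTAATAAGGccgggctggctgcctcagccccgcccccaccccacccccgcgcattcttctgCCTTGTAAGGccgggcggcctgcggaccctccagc
Myl6: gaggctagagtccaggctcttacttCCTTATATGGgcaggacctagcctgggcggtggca
The other full boxes were before *Ldb3* and *Cnn2*. A match is a description of these letters only. The changes of *Vcl*, *Myl9* and *Myl6* stand with their list further on.

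By their group means, all 17 probes of the contractile genes were lowest in OB grafts, intermediate in non-OB grafts and highest in sham lungs, an order that 27.4% of all probes had. In OB against sham, 13 of the 17 probes, from 8 of the 10 genes, passed the test as lower and 0 as higher, where a call needed a Benjamini-Hochberg adjusted p under 0.05 from limma and at least a 2-fold change. The same call took 2.43% of all probes as lower and 2.72% as higher. All 17 estimates were below 0, also with 75th percentile scaling, quantile normalization and normexp correction, and 45.3% of all probes were. At an unadjusted p under 0.05, 16 of 17 were lower, against 11.2% of all probes. Over the brightest probe of each gene the median log2 change was -1.53, with a range from -3.14 to -0.65. The median over the brightest probes of all 22909 named genes was -0.05, and over all tested probes it was 0.08. OB and sham did not overlap for 16 of the 17 probes (16.2% of all probes were lower in that way), and all 6 grafts lay below all 3 sham lungs for 14 of 17 (10.4% of all probes). Both comparisons use the same 3 sham lungs. In whole tissue, a smaller share of smooth muscle cells and less RNA of these genes per cell cannot be told apart.

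**Figure D1:**
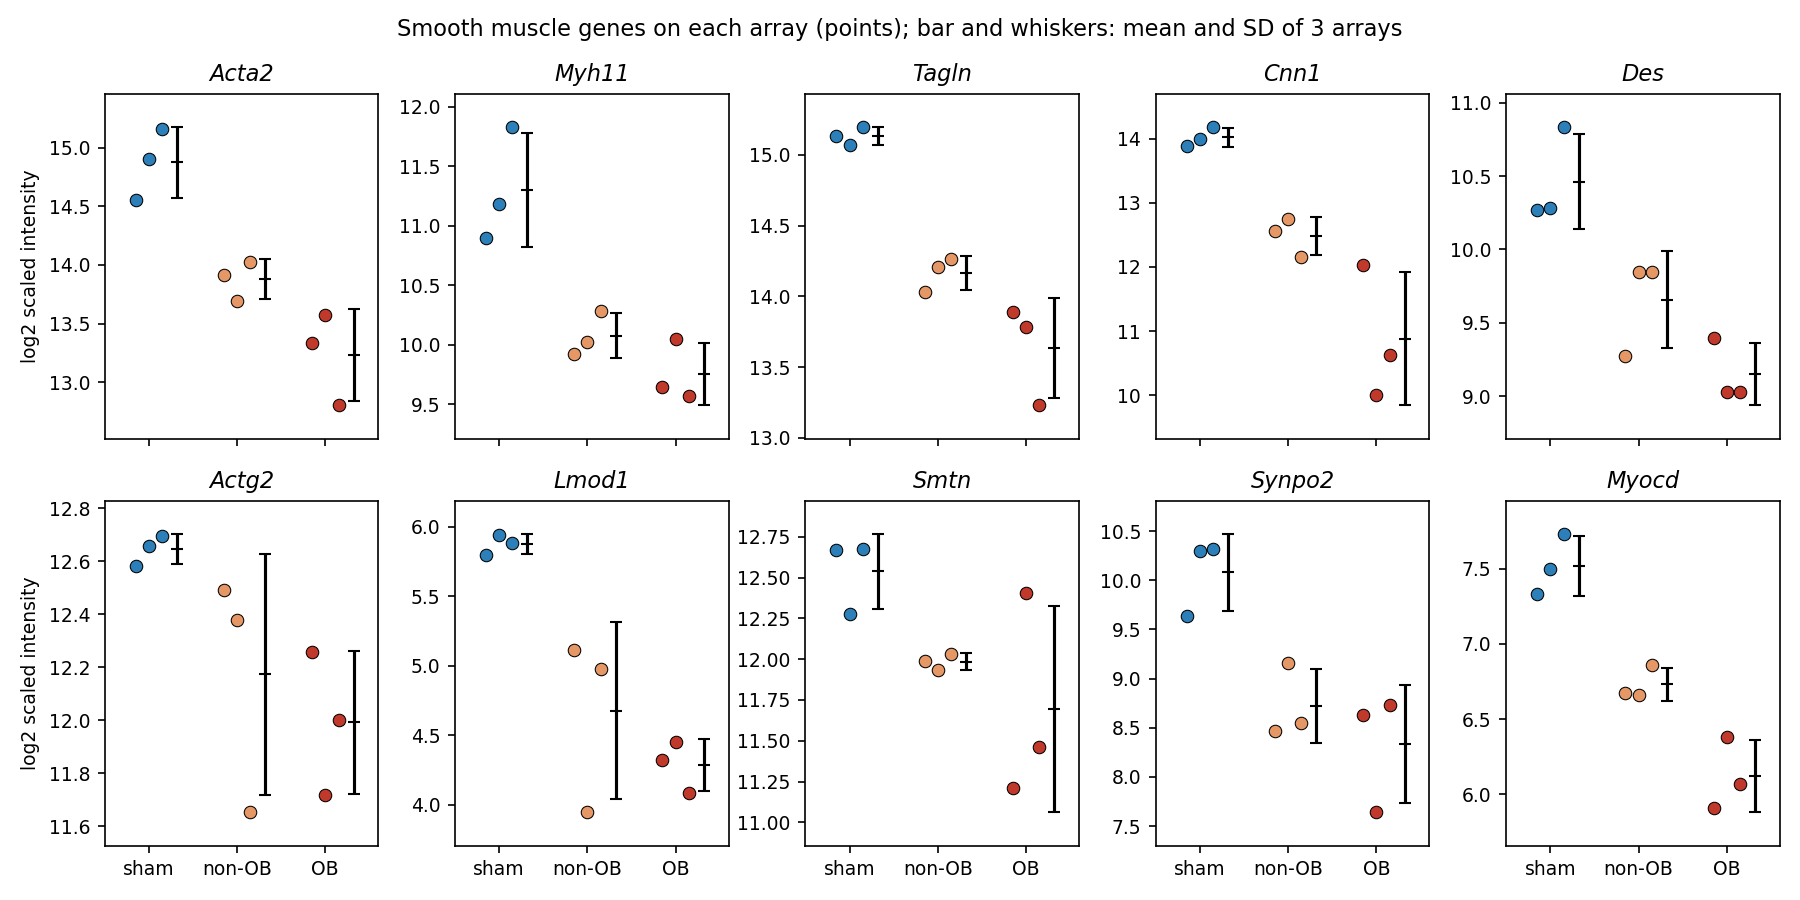
Log2 scaled intensity (y axes, 1 panel per gene, brightest probe) on each of the 9 arrays, grouped on the x axes as sham, non-OB and OB, with the mean and SD of 3 arrays beside the points. In 9 of 10 panels all OB points lie below all sham points, and in the *Smtn* panel 1 OB point overlaps the sham points.

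Values are log2 of the intensity after each array was scaled to a trimmed mean of 2500, given for the brightest probe of a gene. Probes differ in how brightly they report, so levels were compared between lungs and not between genes.

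The actins came first. *Acta2*, which encodes the actin of the smooth muscle filament (accession NM_007392), had values of 14.55, 14.90 and 15.16 in the sham lungs, 13.91, 13.69 and 14.03 in the non-OB grafts and 13.33, 13.57 and 12.81 in the OB grafts. The 3 groups did not overlap, and OB 3 was the lowest lung. Its level fell 3.11-fold in OB (log2 change -1.64, SE 0.26, adjusted p = 0.0111 from limma). The non-OB difference of -0.99 was not called (adjusted p = 0.0958 from limma). On the array, 3 probes carry the accession of *Acta2*, and they did not give the same answer. A dimmer probe gave -1.80 in OB (adjusted p = 0.00401 from limma) and -1.16 in non-OB (adjusted p = 0.0298 from limma), and both were calls. Another probe, bright in every lung, read 13.69, 13.63 and 13.89 in sham and 13.55, 13.60 and 13.48 in OB, a difference of -0.19 (adjusted p = 0.558 from limma). Why it stood apart was not tested. *Actg2* (NM_009610), the actin otherwise known from gut and bladder muscle, had 12.58, 12.66 and 12.69 in sham, 12.49, 12.38 and 11.65 in non-OB and from 11.72 in OB 2 to 12.26 in OB 1 among the OB grafts. Both graft groups lay below the sham lungs and overlapped each other. Its OB difference of -0.65 (SE 0.26) was not called (adjusted p = 0.21 from limma).

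The motor fell with *Acta2*. *Myh11* (NM_013607), the myosin heavy chain held to be the most specific marker of the lineage, had 10.90, 11.18 and 11.83 in sham, 9.92, 10.02 and 10.28 in non-OB and 9.64, 10.05 and 9.57 in OB. All grafts were below all sham lungs, while OB and non-OB overlapped. It fell 2.93-fold in OB (log2 change -1.55, SE 0.27, adjusted p = 0.0174 from limma). Its other probes gave -1.50 and -1.65, both called. In non-OB grafts the 3 probes lay between -1.30 and -1.15, and the one at -1.30 was called (adjusted p = 0.0208 from limma).

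*Tagln* and *Cnn1* encode actin-binding proteins of the thin filament. *Tagln* (NM_011526) had 15.14, 15.07 and 15.20 in sham, 14.03, 14.21 and 14.27 in non-OB and 13.89, 13.79 and 13.23 in OB. The groups were apart from each other, and the sham lungs were within a narrow range. It fell 2.83-fold in OB (log2 change -1.50, SE 0.21, adjusted p = 0.00762 from limma). *Cnn1* (NM_009922), whose product restrains the myosin motor, had 13.89, 13.99 and 14.18 in sham, 12.55, 12.74 and 12.15 in non-OB and 12.02, 10.00 and 10.63 in OB. OB 2 and OB 3 were far below OB 1, which lay near the lowest non-OB graft. Its 8.79-fold fall in OB was the largest of the 10 genes (log2 change -3.14, SE 0.46, adjusted p = 0.00916 from limma), and a second probe gave -3.42. The non-OB difference of -1.54 was not called (adjusted p = 0.147 from limma).

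*Des*, *Synpo2* and *Smtn* belong to the cytoskeleton that ties filaments together. *Des* (NM_010043), an intermediate filament gene of all muscle types, had 10.27, 10.28 and 10.84 in sham, 9.28, 9.85 and 9.85 in non-OB and 9.40, 9.03 and 9.03 in OB. All grafts were below the sham lungs, and the graft groups overlapped. It fell 2.48-fold in OB (log2 change -1.31, SE 0.25, adjusted p = 0.0234 from limma). *Synpo2* (NM_080451), an actin-bundling protein gene, had 9.63, 10.30 and 10.31 in sham, 8.46, 9.16 and 8.55 in non-OB and 8.63, 7.64 and 8.73 in OB. OB 2 was the lowest lung, and the other OB grafts lay among the non-OB values. It fell 3.36-fold in OB (log2 change -1.75, SE 0.36, adjusted p = 0.0297 from limma). A dimmer *Synpo2* probe rose well above background in the sham lungs and in no graft, so its fall, called in OB, is given only as a bound, at least 1.9-fold lower, which sets the sham mean against, on each graft array, the higher of the probe's own signal and the lowest signal well above background. *Smtn* (NM_001284428), found in contractile smooth muscle cells, had 12.67, 12.27 and 12.67 in sham, 11.99, 11.93 and 12.03 in non-OB and 11.21, 12.41 and 11.46 in OB. OB 2 lay within the sham range. Its OB difference of -0.84 (SE 0.31) was not called (adjusted p = 0.176 from limma), nor was that of its second probe, -0.98 (adjusted p = 0.0527 from limma).

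*Lmod1* and *Myocd* stand for filament assembly and for control of the program. *Lmod1* (NM_053106), which nucleates actin filaments, was dim, with 5.80, 5.94 and 5.88 in sham, 5.11, 3.95 and 4.98 in non-OB and 4.33, 4.45 and 4.08 in OB. It was well above background on 3 sham, 2 non-OB and 1 OB array, so its lowest values are near the limit of the assay. It was called lower in OB (log2 change -1.59, SE 0.31, adjusted p = 0.024 from limma), but with normexp correction and quantile normalization the change was -0.46 and was not called. *Myocd* (NM_145136), the SRF coactivator, had 7.33, 7.50 and 7.73 in sham, 6.68, 6.66 and 6.86 in non-OB and 5.91, 6.38 and 6.07 in OB. It was well above background on all 9 arrays, and the groups followed one another without overlap. It fell 2.64-fold in OB (log2 change -1.40, SE 0.20, adjusted p = 0.00767 from limma), and with normexp correction and quantile normalization the change was -0.80 and was not called.

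In non-OB grafts the same genes lay between their levels in sham and in OB. Of the 17 probes 2 were called lower, 1 of *Acta2* and 1 of *Myh11*, and 0 higher, against 0.71% and 1.81% of all probes. All 17 estimates were below 0, also with those 3 settings, and 41.4% of all probes were. At an unadjusted p under 0.05, 14 of 17 were lower, against 7.98% of all probes. No gene was called by its brightest probe, and the median over these was -0.98. *Synpo2* had -1.36, *Lmod1* -1.20, *Tagln* -0.97, *Des* -0.80, *Myocd* -0.79, *Smtn* -0.55 and *Actg2* -0.47. Non-OB and sham did not overlap for 15 of 17 probes (12.6% of all probes). Both calls were lost without any 1 of the non-OB grafts, without sham 2 and without sham 3, and with slide as a block. The calls came to 1 without sham 1, to 4 without OB 1 and to 6 with quantile normalization. Of all probes, 437 were called lower with quantile normalization, in place of 402. Counts over all probes with a lung left out are not given here.

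**Figure D2:**
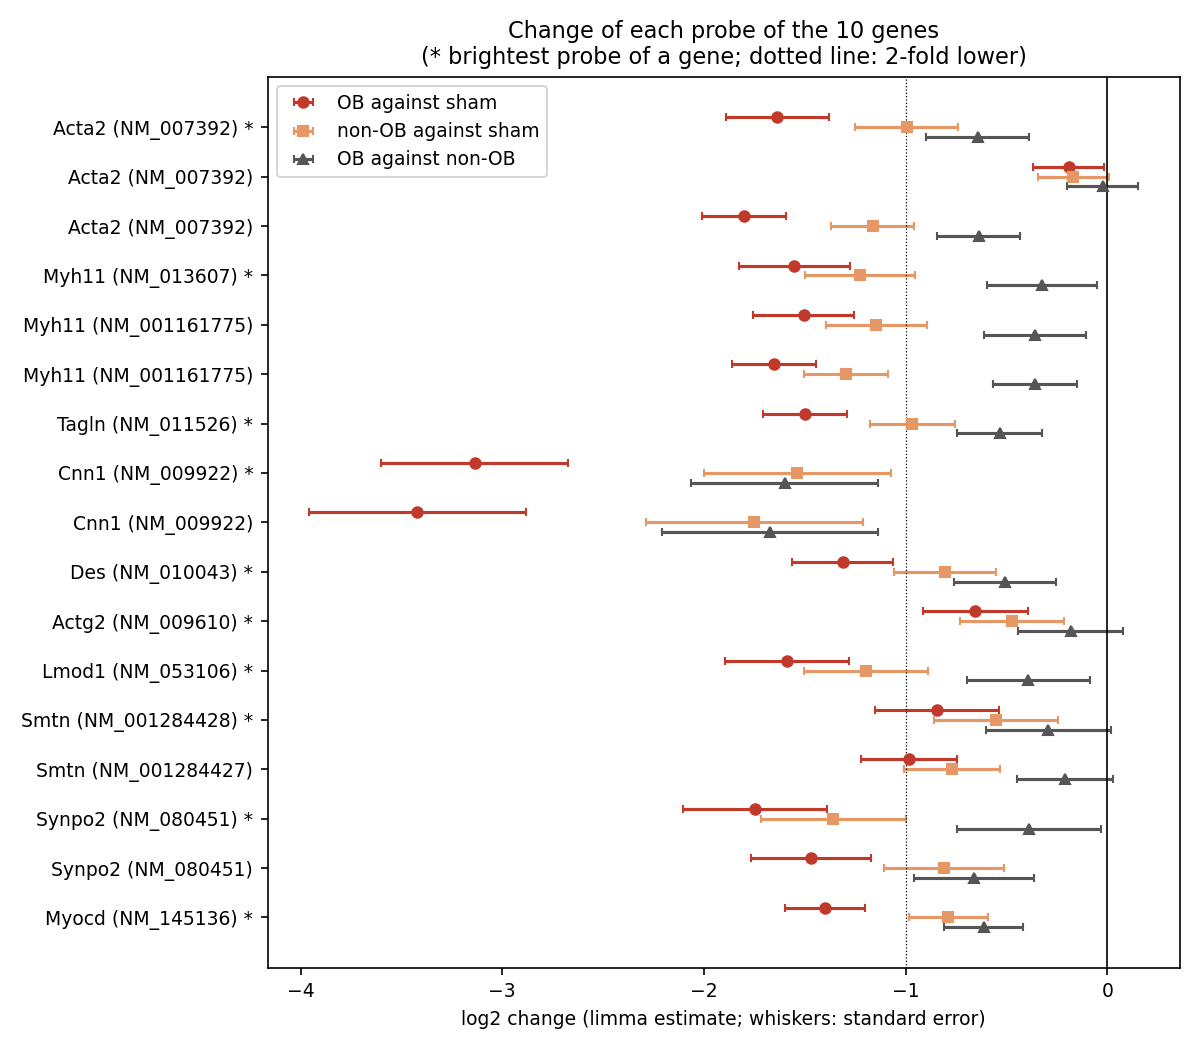
Log2 change (x axis, limma estimate with its standard error) of each of the 17 probes (y axis, gene and accession, star for the brightest probe of a gene) in OB against sham, non-OB against sham and OB against non-OB. All estimates lie below 0, from -3.42 for a *Cnn1* probe in OB against sham to -0.02 for an *Acta2* probe in OB against non-OB.

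The calls in OB rested on few arrays, and the arrays came from 4 slides. Slide 1 carried sham 1 and sham 2 together with OB 1 and non-OB 1, and sham 3 was alone on another. Within slide 1, OB 1 was below the mean of both sham lungs for all 17 probes, with a median over the 10 genes of -1.37, and non-OB 1 was below it for 16 of 17, with a median of -0.91. The share of all probes that were lower within slide 1 is not given here. With slide as a block the median over the genes was -1.42 in OB, none of the 17 probes was called (limma adjusted p from 0.0648 to 0.472 over the 10 genes), and 4 of all 56601 probes were. With slide as a random block, with a correlation of 0.458 within slides, 13 of the 17 probes were called and 4144 of all probes. *Cnn1* was at -2.45 with the fixed block. Against sham 1 alone, the C57BL/10 sham lung, *Acta2* was at -1.32, *Myh11* at -1.15 and *Myocd* at -1.21 in OB, and none of the probes was called. Without OB 3 the calls came to 7 and without sham 2 to 6. Counts over all probes with sham 1 alone or with a lung left out are not given here. Whether such losses of calls are particular to the contractile genes was not tested. *Des*, *Lmod1* and *Synpo2* each lost the call when any sham lung, OB 2 or OB 3 was left out, and *Lmod1* also without OB 1. *Myh11* lost it without OB 3 or without sham 2, and *Acta2* without sham 2.

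The comparison of OB with non-OB grafts asks what differs between transplanted lungs with and without the airway lesion. None of the 17 probes was called, and the share over all probes was 0.0%, as limma called none of the 56601. At an unadjusted p under 0.05, 6 of 17 probes were lower, against 1.4% of all probes. They were both *Cnn1* probes, 2 of the 3 *Acta2* probes, *Tagln* and *Myocd*. All 17 estimates were below 0, as 65.6% of all probes were, and 16, 16 and 15 were so with 75th percentile scaling, quantile normalization and normexp correction. The median over the genes was -0.45. *Cnn1* had the largest difference, 3.03-fold lower in OB (log2 change -1.60, SE 0.46, unadjusted p = 0.00861 and adjusted p = 1 from limma). *Myocd* was 1.53-fold lower, *Acta2* 1.56-fold and *Tagln* 1.45-fold. For 7 of 17 probes all OB grafts lay below all non-OB grafts (2.86% of all probes), and for 6 of 17 the groups ran OB, non-OB, sham without any overlap (0.984% of all probes). Slides 1, 2 and 3 each held 1 graft of both kinds. Within them the median difference was -0.40, -0.48 and -0.53, with 8, 8 and 9 of the 10 genes lower in the OB graft. The share of all genes lower within each slide is not given here. These counts stand beside the 65.6% of all probes below 0 in the whole comparison. *Cnn1* differed by -0.53, -2.15 and -2.12 within the slides.

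The partners of these genes in the contractile machine were described next, in lists of genes by their known role. These lists too were chosen with earlier results of these data known. Over the brightest probes of all 22909 genes, 3.73% were called lower and 3.82% higher in OB against sham. In these lists, a gene that fell or rose is one so called. Of 24 contractile partners, 9 fell in OB and none rose, with a median of -0.86. Estimates were below 0 for 23 of the 24. Over the brightest probes of all 22909 genes the median was -0.05, so most of those were below 0 too. The largest falls were in *Ldb3* (log2 change -2.30, a Z-disc protein gene also active in heart), *Synm* (-1.91, the intermediate filament partner of desmin) and *Ppp1r14a* (-1.63, the inhibitor of myosin phosphatase). Named for their promoters, after the values were seen, *Vcl* fell with -1.27 (SE 0.21, adjusted p = 0.0146 from limma) and *Myl9* with -1.37 (SE 0.31, adjusted p = 0.0431 from limma), whereas *Myl6*, used by many cell types, had -0.42 (adjusted p = 0.195 from limma) and *Cnn2*, a calponin of non-muscle cells, -0.30 (adjusted p = 0.373 from limma). In non-OB grafts 5 of the 24 fell, where 1.13% of all genes were called lower, and the median was -0.63. Of 13 transcription factors only *Foxf1*, a regulator of lung mesenchyme and endothelium, fell in OB (-2.03, adjusted p = 0.0176 from limma). Estimates were below 0 for 8 of the 13, as they were for most of all 22909 genes. *Klf4*, a repressor of contractile genes that endothelium and epithelium also express, had -1.20 (adjusted p = 0.179 from limma), *Srf* had -0.54 (adjusted p = 0.256 from limma), and the median was -0.48. Of 23 receptors and channels, 7 fell and none rose, with 22 estimates below 0 and a median of -0.83. The muscarinic receptor genes *Chrm2* and *Chrm3*, through which acetylcholine acts on airway muscle, were among them, as was the endothelin receptor gene *Ednrb* (-2.41), which is also in the endothelial list. *Ryr2*, in this list and in the cardiac one, had -2.76 (adjusted p = 0.0588 from limma). Both muscarinic genes were dim. *Chrm3* stood well above background in no OB graft, so its fall is only a bound, at least 2.66-fold lower (adjusted p = 0.0144 from limma). *Chrm2*, with a log2 change of -2.28, was well above background on 1 of 3 OB arrays.

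**Figure D3:**
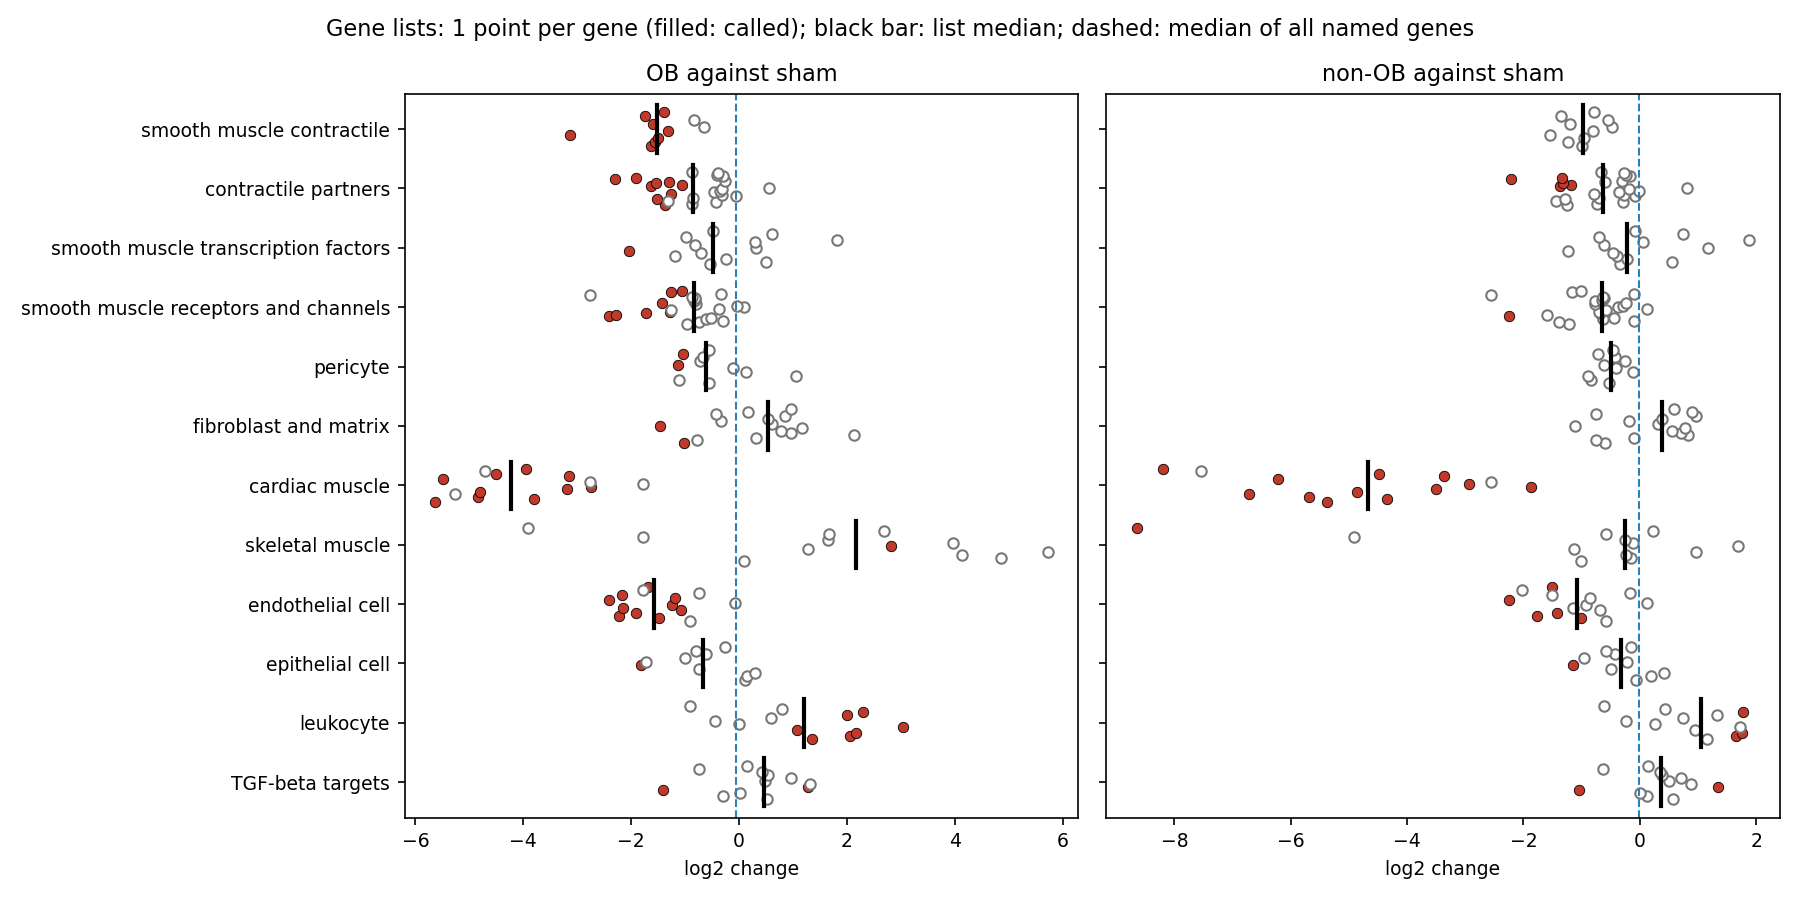
Log2 change (x axes) of each gene's brightest probe in 12 gene lists (y axis) for OB against sham and non-OB against sham, with called genes filled, a bar at each list's median and a dashed line at the median of all named genes. The contractile genes have a median of -1.53 in OB, the cardiac muscle list -4.23 and the leukocyte list 1.21.

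Other cells of the lung moved as well. Their part in the results above was not tested. Among 14 cardiac muscle genes 10 were called lower in OB and 12 in non-OB, with medians of -4.23 and -4.68, and their summed intensity ran from 66980 to 193300 in sham lungs, from 4456 to 14700 in OB and from 4895 to 9535 in non-OB. The lowest of the sham lungs was sham 1. The atrial hormone gene *Nppa* (-5.63), the muscle LIM protein gene *Csrp3* (-5.49) and the atrial light chain gene *Myl7* (-4.84) had the largest falls among the called genes of that list in OB. *Csrp3* was well above background on 1 of 3 OB arrays, and *Myh6*, at -5.26, was not called (adjusted p = 0.0522 from limma). *Des*, *Synpo2*, *Myocd* and *Ldb3* are expressed in heart muscle too, so their falls stand beside this one. The 12 skeletal muscle genes summed to 42464 in OB 1 and 10454 in OB 2 against 2971 in OB 3, 2700 to 2922 in non-OB and 3473 to 7766 in sham, and their median log2 change in OB was 2.17, with 2 of 12 genes below 0. *Tnni2* was the 1 gene called higher (log2 change 2.82), and *Acta1* had 0.09. Of 14 endothelial genes 10 fell in OB with a median of -1.58, *Ednrb*, *Kdr* (-2.23) and *Car4* (-2.17) most. In non-OB 5 of them fell, with a median of -1.08.

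Cells that wrap vessels and build matrix were mixed. Of 10 pericyte genes, *Higd1b* (-1.12) and *Ndufa4l2* (-1.05) fell in OB, with a median of -0.61. Of 15 fibroblast and matrix genes, *Col13a1* (-1.46) and *Pdgfra* (-1.02) fell and none was called higher. Only 5 of the 15 estimates were below 0, and the median was 0.54. Of 12 targets and ligands of TGF-beta, a factor that can induce contractile genes in fibroblasts, the feedback inhibitor gene *Smad7* fell (-1.40) and the matrix gene *Tgfbi* rose (1.27), and the median was 0.45. Of 10 epithelial genes, *Hopx* fell (-1.82), *Sftpc* had 0.14 and *Scgb1a1* -1.73 (adjusted p = 0.372 from limma), with a median of -0.68. Of 12 leukocyte genes 7 rose, with a median of 1.21, led by *Cd8a* (3.03), *Cd68* (2.29) and *Cd3d* (2.17), and their summed intensity was 105700 to 141500 in OB, 85720 to 111600 in non-OB and 50260 to 61900 in sham.

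**Figure D4:**
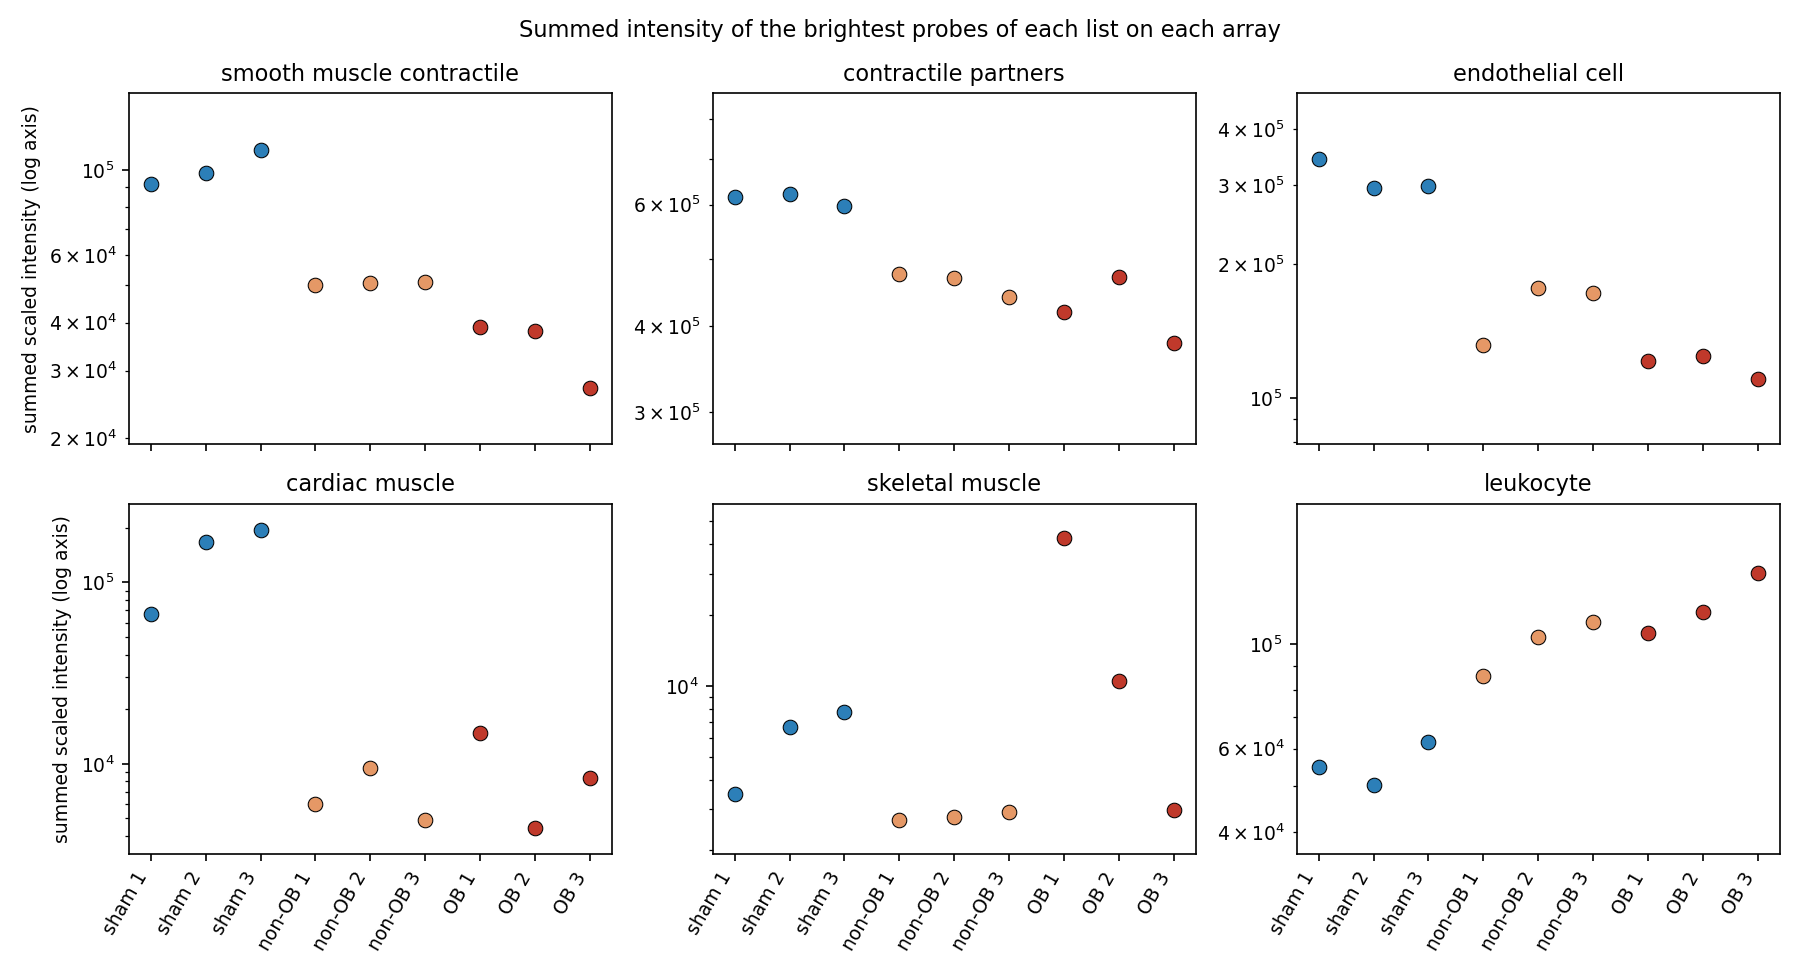
Summed scaled intensity (y axes, log scale) of the brightest probes of 6 gene lists on each array (x axes). The contractile genes sum to 92013 to 112890 in sham lungs, 50130 to 51046 in non-OB and 27063 to 38844 in OB, with OB 3 lowest, and the skeletal muscle list is highest in OB 1.

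The summed intensity of the 10 contractile genes was 38844, 38014 and 27063 in OB 1, OB 2 and OB 3, 50130, 50862 and 51046 in the non-OB grafts and 92013, 97865 and 112890 in the sham lungs. The 3 groups were apart, and the non-OB grafts lay close together. The sum weights the brightest genes most, *Tagln* and *Acta2* among them, whose groups were also apart singly. By their brightest probes, *Myh11*, *Des*, *Actg2*, *Lmod1*, *Smtn* and *Synpo2* overlapped between OB and non-OB grafts.

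Genes whose pattern over the 9 arrays was most like the mean of the contractile genes, taken over the 9 detected on every array and so without *Lmod1*, were sought among 14738 other genes detected on every array, by the root mean square difference of the centred log2 values. The nearest was *Cavin1* (0.123), which encodes a coat protein of caveolae, the membrane pits abundant in smooth muscle and endothelium. Next were *Lrrc8b*, *Gcnt2*, *Eda*, *Fermt2*, *Galnt18*, *Rhoj*, *Sox6*, *Lbx2* and *Pmp22*, at up to 0.181. Among these 9 contractile genes *Tagln* lay closest to their mean (0.145) and *Cnn1* farthest (0.805). *Cavin1* had log2 changes of -1.34 in OB and -0.85 in non-OB.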

How the data were processed

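RNA of 9 left lungs (3 per group, 1 lung per mouse) was hybridised to single-colour Agilent arrays, 1 array per lung. The authors extracted background-subtracted, spatially detrended signals with Agilent Feature Extraction 12.0.3.1 and deposited the spot intensity. They also deposited a value table of scaled intensities. Control spots (3671 per array) and spots marked as outliers (53 to 111 per array) were left out, and each array was scaled to a mean of 2500 trimmed by 2% at each end. From 58.6% to 69.6% of spots were well above background, and no spot was saturated. The deposited intensities were taken to log2, on which limma 3.58.1 in R 4.3.3 was fitted to all 9 arrays with 1 mean per group and Benjamini-Hochberg adjustment over 56601 probes. The fit was tested on simulated data. Python 3.11.15, numpy 2.4.6, pandas 2.3.3 and matplotlib 3.10.9 were used. Genes were named through RefSeq accessions, which matched 32991 probes, and no coordinates of probes were used. Having 3 lungs per group limits the precision. Every contractile gene is named through its brightest probe, and from each other list up to 3 called genes with the largest change, or with fewer than 2 calls also the 2 of highest signal. *Vcl*, *Myl9*, *Myl6*, *Cnn2*, *Srf*, *Ryr2* and *Myh6* were named after their values were seen. The members and lists were chosen with earlier results of these data known. Scaling, background correction, spot and probe filters, the spread model, the methods' t-test, blocks for slide and replicate number, the sham strain and leaving out each lung were tried as alternatives.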

Additional observations from a re-analysis of the deposited data

How the results depend on the processing

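In OB against sham, the 13 called probes became 0 with sham 1 alone as the control, 0 with slide as a block, 4 with the methods' t-test after Benjamini-Hochberg adjustment, and 6 to 13 when 1 lung was left out. In non-OB against sham, the 2 called probes became 1 with only the groups compared, 4 with 75th percentile scaling, 5 without dim probes, 6 with quantile normalization, 4 with slide as a random block, 4 with a trended and robust spread, 8 with the methods' t-test unadjusted and 0 after adjustment, 0 with sham 1 alone, 0 with slide as a block and 0 to 4 when 1 lung was left out. Of all probes, 402 were called lower in non-OB in the main fit, 309 with 75th percentile scaling and 437 with quantile normalization. With slide as a random block, 2385 of all probes were called in non-OB, lower or higher. In OB against non-OB, the 0 became 2 with the methods' t-test unadjusted, which called 1012 of all probes. Counts over all probes are not given here for every alternative. The causes were not tested. No log2 change of the 10 genes reversed under an alternative. Of 225 values of single genes in OB against sham, 175 kept their side of the threshold, 49 lost the call and 1 gained it. In non-OB against sham 214 of 225 kept theirs and 10 gained a call. *Smtn* in non-OB moved to -0.66 with the median of its probes. Quantile normalization moved the median of all probes by -0.15 in non-OB against sham, and members relative to that median then stood at -0.92 in place of -1.11. With normexp correction and quantile normalization they stood at -0.80. In OB against sham that setting gave -1.16 in place of -1.60, and in OB against non-OB -0.26 in place of -0.40. *Lmod1* and the dimmer *Synpo2* probe are limited by signal over background.

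With replicate number as a block, 10 member probes were called in OB against sham, 0 in non-OB against sham and 0 in OB against non-OB. Of all probes, that block called 2101 in OB against sham, lower or higher, in place of 2915 in the main fit. In non-OB against sham it called 711 in place of 1429, and in OB against non-OB it called 0. The replicate numbers did not pair the lungs. Deviations of same-numbered lungs correlated from -0.398 to 0.283 over 9 pairs, and 2 of 9 arrays correlated best with their own number.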
